A study of Mus musculus with 228 samples.

Results

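The clustered protocadherins are cell-surface adhesion proteins encoded by a tandem array of genes. They were taken here as every row of the deposited count table whose symbol starts with Pcdha, Pcdhb or Pcdhg and an isoform name. This gave 56 of 22870 gene rows, with 13 in the alpha, 22 in the beta and 21 in the gamma cluster. In the GENCODE annotation of GRCm38 all lie on the plus strand of chromosome 18. The alpha cluster spans 36930184 to 37187661, the beta cluster 37264938 to 37524479 and the gamma cluster 37661793 to 37841873.

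Each alpha or gamma gene contributes a variable first exon, which encodes the extracellular part of 1 isoform and has its own promoter, and this exon is spliced to constant exons common to the cluster. Beta genes have no constant exons. A neuron transcribes only a few isoforms, chosen by a process that involves the insulator protein CTCF, cohesin and DNA methylation, and the proteins bind like proteins on facing membranes. In the nervous system this combinatorial label is known for self-avoidance of branches of the same neuron, and in the hippocampus for dendrite and axon patterning. The 5 C-type isoforms Pcdhac1, Pcdhac2, Pcdhgc3, Pcdhgc4 and Pcdhgc5, at the downstream ends of the alpha and gamma clusters, are regulated apart from the others, which are called alternate isoforms.

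Single hippocampal neurons of mice aged 3 to 4 months were harvested by patch pipette in brain slices, 1 month after adeno-associated virus (AAV) had been injected into the hippocampus, and each cell gave its own RNA-seq library. Ascl4 CA1 cells (45 cells) were medial CA1 pyramidal neurons of the ventral hippocampus of Nex-Cre mice that received Cre-dependent AAV-EGFP together with AAV-Ascl4, which encodes a basic helix-loop-helix transcription factor. GFP CA1 cells (46 cells) came from Nex-Cre mice with AAV-EGFP alone. Ascl4 GC cells (51 cells) were ventral granule cells of Calb1-Cre mice with both viruses, and GFP GC cells (47 cells) were granule cells of Calb1-Cre mice with AAV-EGFP alone. Cell type and Cre line cannot be told apart, nor can Ascl4 and the presence of a second virus, since no group received another second virus. Since the labels do not say which animal a cell came from, the spread between animals is unknown, a group stands as 1 sample, and differences are given without a test.

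Reads per cell ranged from 1077532 to 25442664. Levels are reads per 1000000 gene-assigned reads (CPM). Pooled levels are reads summed over the cells of a group, and ratios were taken on the log2 scale with 1 CPM added, which understates folds of low values. Intervals are exact at 95%, Poisson for CPM and Clopper-Pearson for shares of cells, and reflect counting error alone, as amplified reads that carry no molecular identifier are not separate molecules. The titles number the cells in 2 runs per group. The first and second run held 17 and 28 Ascl4 CA1, 15 and 31 GFP CA1, 33 and 18 Ascl4 GC and 15 and 32 GFP GC cells, and values are also given within each run. The labels do not call the runs batches. Prox1, a granule cell transcription factor, had 10 CPM or more in 24 of 51 Ascl4 GC and 25 of 47 GFP GC cells, against 1 of 45 Ascl4 CA1 and 0 of 46 GFP CA1 cells. Neurod6, a pyramidal cell factor, reached that level in 19 of 45 Ascl4 CA1 and 40 of 46 GFP CA1 cells, against 1 of 51 Ascl4 GC and 0 of 47 GFP GC cells. Ascl4 itself stood at a pooled 9395 CPM in Ascl4 CA1, 32.6 CPM in GFP CA1, 14111 CPM in Ascl4 GC and 47.2 CPM in GFP GC cells, with a read in every cell of all 4 groups. A single read was therefore not taken as expression, and an isoform was called at 10 CPM. Ascl4 also reached 10 CPM in 26 of 46 GFP CA1 and 37 of 47 GFP GC cells, which received no AAV-Ascl4. The limit of 10 CPM did not remove such reads.

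The rows of the alpha and gamma clusters did not count isoforms. Rows of a cluster often held exactly the same number of reads in a cell, the lowest of the cluster there. Where this common value was above 0, a median of 11 and at least 3 of 12 alpha rows stood at it, and a median of 18 and at least 7 of 21 gamma rows. In the annotation 2860 exon bases belong to every alpha gene and 2116 to every gamma gene. The Pcdha11 row was below 2 times the common value in no cell, and stood at exactly 2 times in 86.05% of the cells with common reads, and 2 annotated genes carry that symbol. Common reads made up 94.7% of the reads in the 12 other alpha rows and 96.7% of those in the gamma rows, where the same reads appeared 21 times. As deposited, a cell had a median of 22 protocadherin rows at 10 CPM or more in Ascl4 CA1 and 21 in each of GFP CA1, Ascl4 GC and GFP GC cells. These medians are close to the size of the gamma cluster. Each row was therefore taken apart into the common reads, counted once per cluster, and the isoform's own reads above them. This step was chosen once the rows had been inspected. Beta rows share no exon, except Pcdhb21 and Pcdhb22, which overlap over 455 exon bases and were called as 1 isoform, leaving 55 isoforms.

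Common reads measure a cluster's output whichever isoform a cell uses. Gamma output was the more widespread, at 10 CPM or more in 60.3% of all cells, against 30.7% for alpha. Gamma common reads stood at a pooled 184.4 CPM (182.6 to 186.3) in Ascl4 CA1 cells, where the cells ran from 0 over a median of 108.3 to 1088 CPM. In GFP CA1 cells the pooled level was 105.6 CPM (104.3 to 106.9), with a cell median of 11.1 and a range of 0 to 997 CPM. In Ascl4 GC cells it was 215.7 CPM (214.02 to 217.39), with a median of 124.5 and a range of 0 to 1167 CPM. In GFP GC cells it was 172.7 CPM (170.9 to 174.4), with a median of 38.8 and a range of 0.125 to 1158 CPM. The ranges of the 4 groups overlapped almost entirely. Cells at 10 CPM or more were 29 of 45 in Ascl4 CA1 (48.8% to 78.1%), 24 of 46 in GFP CA1 (36.9% to 67.1%), 34 of 51 in Ascl4 GC (52.1% to 79.2%) and 27 of 47 in GFP GC (42.2% to 71.7%).

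Alpha common reads were pooled at 99.7 CPM in Ascl4 CA1, 46.9 CPM in GFP CA1, 53.9 CPM in Ascl4 GC and 48.7 CPM in GFP GC cells. Cell medians were 1.02, 1.44, 0.19 and 0.392 CPM and the highest cells held 1497, 383, 295.9 and 1125 CPM in the same order. Alpha reached 10 CPM in 18 of 45 Ascl4 CA1, 18 of 46 GFP CA1, 9 of 51 Ascl4 GC and 13 of 47 GFP GC cells. In granule cells alpha common reads differed between the number runs. They were at 1.46 CPM in the first and 116.97 CPM in the second run of Ascl4 GC cells. In those of GFP GC cells they were at 0.788 and 73.01 CPM. Only 1 of 33 and 1 of 15 granule cells of the first runs reached 10 CPM, against 8 of 18 and 12 of 32 of the second. The beta reads, with the overlap of Pcdhb21 and Pcdhb22 counted once (the higher of the 2 rows in a cell), summed to 85.1 CPM in Ascl4 CA1, 84.8 CPM in GFP CA1, 90.4 CPM in Ascl4 GC and 129.3 CPM in GFP GC cells, and reached 10 CPM in 21 of 45, 17 of 46, 14 of 51 and 17 of 47 cells. Added up as deposited, the beta rows gave 120.01, 85.2, 100.01 and 129.4 CPM. A single cell held 41.5% of the summed per-cell beta CPM in Ascl4 CA1 and 32.9% in GFP GC cells, with the overlap counted once. By common reads, both alpha and gamma were at 10 CPM in 38 cells, alpha alone in 20, gamma alone in 76 and neither in 55.

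**Figure D1:**
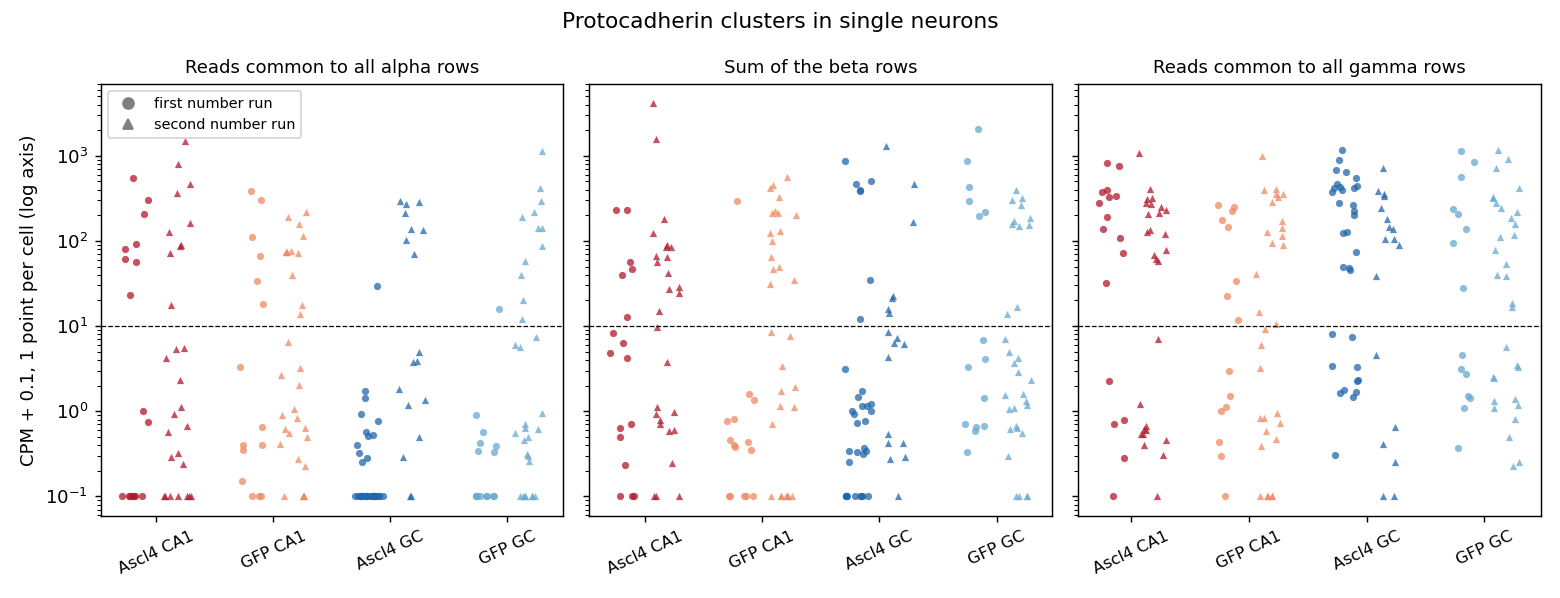
Level of each protocadherin cluster per cell (beta rows as deposited), as CPM plus 0.1 on a log axis, for Ascl4 CA1, GFP CA1, Ascl4 GC and GFP GC cells, with circles for the first and triangles for the second number run and a dashed line at 10 CPM. Alpha values of the first-run granule cells lie below the line in all but 1 of 33 Ascl4 GC and 1 of 15 GFP GC cells, while gamma values of every group spread on both sides of it.

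By own reads a cell used few isoforms. The mean number at 10 CPM or more was 1.84 ± 1.33 in Ascl4 CA1 (SD over 45 cells), 1.67 ± 1.84 in GFP CA1 (46 cells), 1.55 ± 1.84 in Ascl4 GC (51 cells) and 1.13 ± 1.21 in GFP GC cells (47 cells). The lowest cell of each group had 0, the medians were 2, 1, 1 and 1, and the highest cells had 4, 8, 8 and 5 isoforms in the same order. None of the 55 isoforms was called in 8 of 45 Ascl4 CA1, 15 of 46 GFP CA1, 20 of 51 Ascl4 GC and 19 of 47 GFP GC cells. After thinning all cells to a depth of 500000 reads the means became 1.96, 1.74, 1.59 and 1.15. Counting any isoform with 1 own read gave 8.02, 8.17, 8.78 and 7.74.

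Within each group the second run had more isoforms per cell. The means of the first and second run were 1.53 and 2.04 in Ascl4 CA1, 0.867 and 2.06 in GFP CA1, 1.09 and 2.39 in Ascl4 GC, and 0.867 and 1.25 in GFP GC cells. Ascl4 cells were thus above GFP cells in the first run of CA1 and in both runs of GC, and just below them in the second run of CA1. Over all cells of the 4 groups the number of isoforms had a Spearman rho of 0.345 with the number of genes detected and of 0.405 with gamma common reads, values that share the library and its depth. Without the 4 Ascl4 GC cells and the 1 Ascl4 CA1 cell with more than 12000 genes, the means were 1.40 in Ascl4 GC and 1.80 in Ascl4 CA1 cells.

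**Figure D2:**
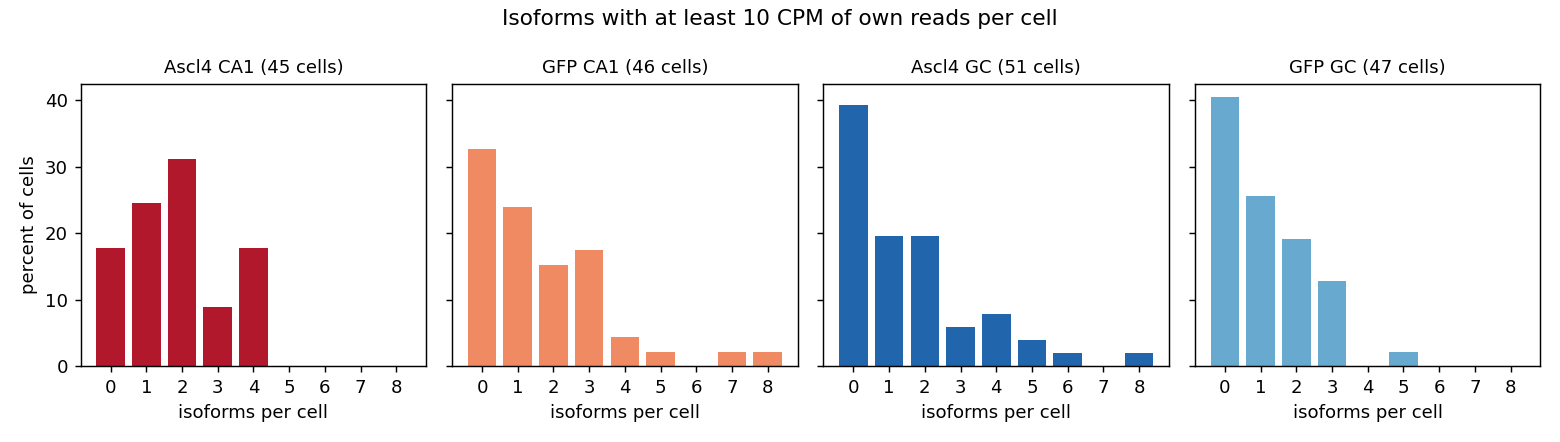
Percent of cells with 0 to 8 isoforms at 10 CPM or more of own reads, for Ascl4 CA1, GFP CA1, Ascl4 GC and GFP GC cells. Most cells of every group have 0, 1 or 2 isoforms, and the highest cells have 4, 8, 8 and 5.

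Gamma isoforms were the most numerous in every group but GFP GC, where beta isoforms were as many. The mean number of gamma isoforms per cell was 1.09 in Ascl4 CA1, 0.870 in GFP CA1, 1.00 in Ascl4 GC and 0.489 in GFP GC cells. For beta these means were 0.489, 0.500, 0.314 and 0.489, and for alpha 0.267, 0.304, 0.235 and 0.149. Where gamma common reads reached 10 CPM, 73.7% of cells had a gamma isoform (39 cells with 1, 29 with 2 and 16 with 3 or more), against 12% of cells below that level. For alpha the shares were 51.7% and 6.87%. The own reads of an isoform and the common reads lie on the same transcripts, so some such relation is built in. It did not hold in every cell, as 1 GFP CA1 cell had 848.4 CPM of Pcdhgc4 but 0.900 CPM of gamma common reads. In 30 cells gamma common reads reached 10 CPM, with a median of 123.5 CPM, but no gamma isoform did. The own reads of all 21 gamma isoforms of such a cell summed to a median of 0.525 CPM and at most 7.65 CPM. The annotation holds a further gamma gene, Pcdhgb8, which was not analysed here, so a cell whose only gamma isoform was Pcdhgb8 would be counted here. These were 3 Ascl4 CA1, 4 GFP CA1, 11 Ascl4 GC and 12 GFP GC cells. Per kilobase of exon, pooled own gamma reads were 0.447 of the common reads in Ascl4 CA1, 0.684 in GFP CA1, 0.498 in Ascl4 GC and 0.350 in GFP GC cells.

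Combinations were nearly all different. Of the 83 cells with 2 or more isoforms, 26 were Ascl4 CA1, 20 GFP CA1, 21 Ascl4 GC and 16 GFP GC cells, and within each group no combination of 2 or more occurred in more than 1 cell. Over all groups these 83 cells held 80 combinations. The 3 that recurred, each in 2 cells of different groups, were Pcdhac2 with Pcdhb20, Pcdhb17 with Pcdhgc5, and Pcdhb20 with Pcdhgc5. In 62 of the 83 cells the isoforms came from 2 or 3 clusters. The cells with the most isoforms were an Ascl4 GC cell with 8 (Pcdha4, Pcdhga6, Pcdhga7, Pcdhga8, Pcdhgb6, Pcdhga11, Pcdhgc3 and Pcdhgc5), whose library detected 12057 genes, and a GFP CA1 cell with 8 (Pcdhac1, Pcdhac2, Pcdhb5, Pcdhga3, Pcdhga6, Pcdhga7, Pcdhga11 and Pcdhgc5). Isoforms in the same cell were not mainly neighbours, since 10.3% of gamma pairs found in a cell (11 pairs) were neighbours among the 21 genes analysed, against 9.52% of all possible pairs.

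Cells with at least 1 isoform shared an isoform in 21.02% of pairs of Ascl4 CA1, 17.4% of GFP CA1, 24.5% of Ascl4 GC and 11.6% of GFP GC cells. Without Pcdhgc5 these shares were 11.09%, 14.02%, 15.02% and 8.99%. In all, 52 of the 55 isoforms were called in at least 1 cell, and Pcdha6, Pcdhb1 and Pcdhb18 in none. Within a group 35 isoforms were seen in Ascl4 CA1, 36 in GFP CA1, 31 in Ascl4 GC and 27 in GFP GC cells. The highest isoform of a cell held a median of 71.9% of the cell's own protocadherin reads in Ascl4 CA1, 75.3% in GFP CA1, 66.2% in Ascl4 GC and 87.5% in GFP GC cells.

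**Figure D3:**
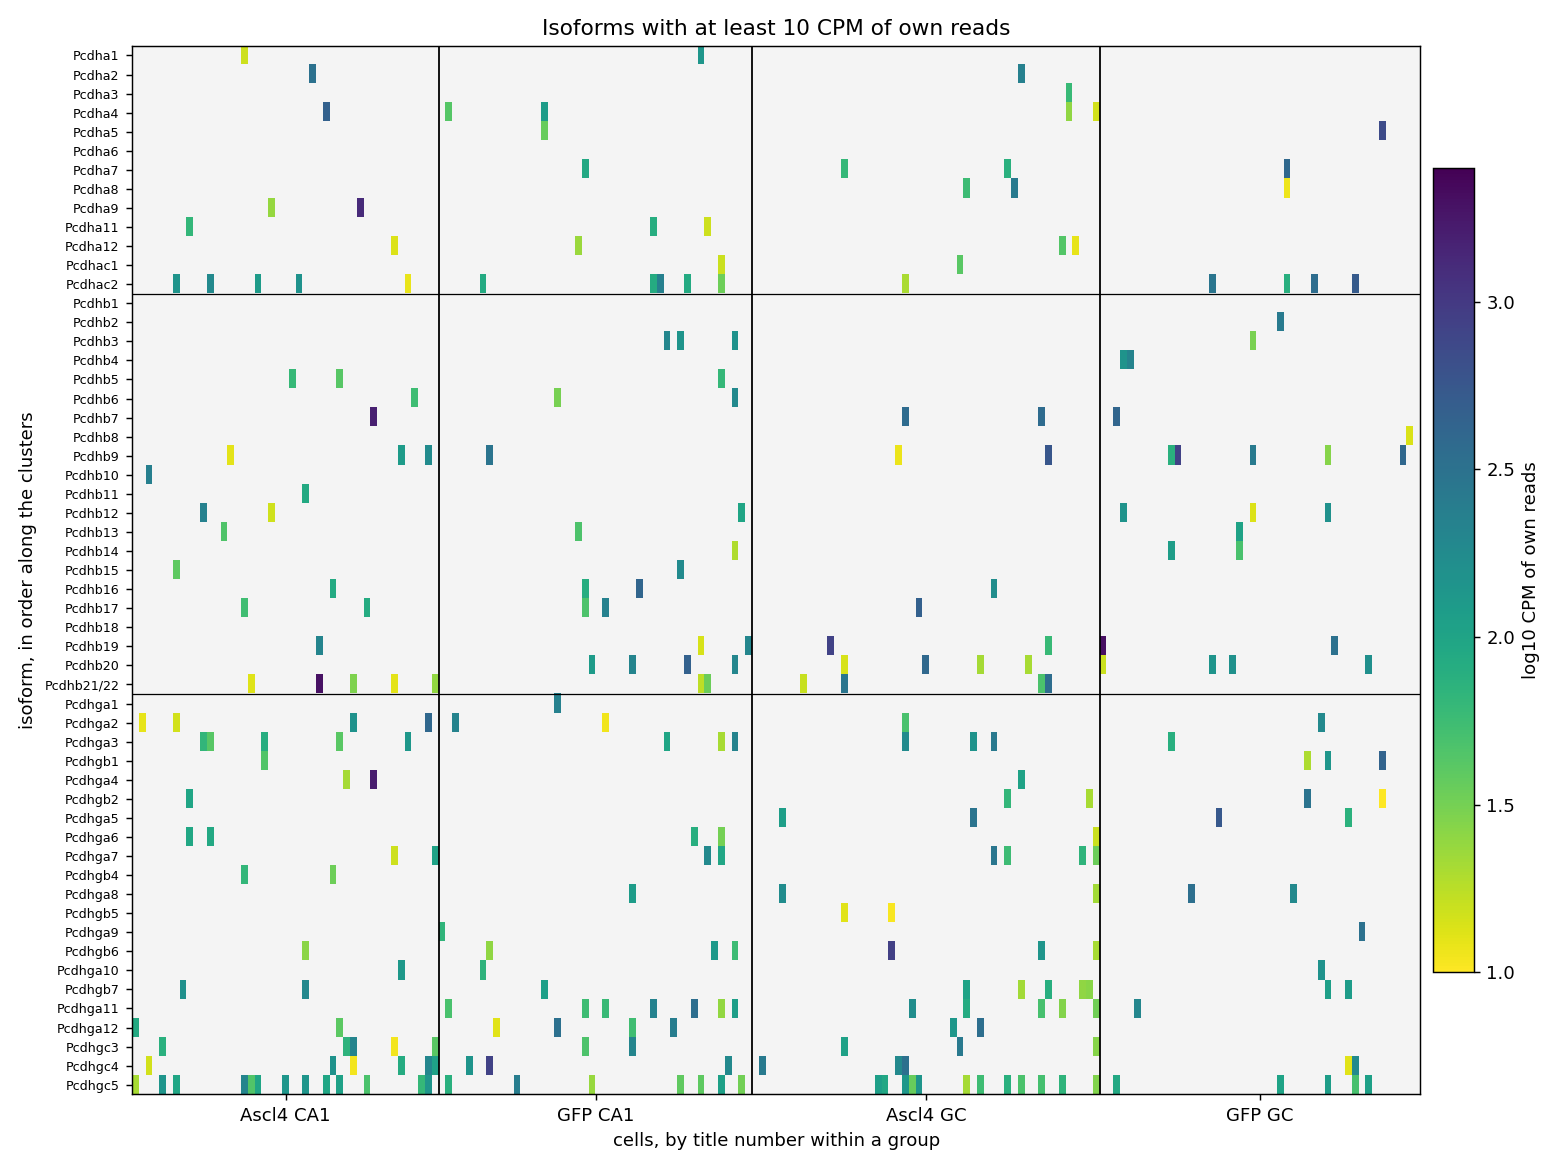
Isoforms (55 rows, in order along the alpha, beta and gamma clusters) at 10 CPM or more of own reads in all cells of the 4 groups (columns, by title number within Ascl4 CA1, GFP CA1, Ascl4 GC and GFP GC), coloured by log10 CPM. Marks are scattered, with 292 calls in all, and the Pcdhgc5 row is the fullest with 37 cells.

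C-type isoforms made up 78 of the 292 calls, or 29 of 83 in Ascl4 CA1, 18 of 77 in GFP CA1, 20 of 79 in Ascl4 GC and 11 of 53 in GFP GC cells. Pcdhgc5, a C-type isoform at the downstream end of the gamma cluster, was the isoform found in most cells. It reached 10 CPM in 13 of 45 Ascl4 CA1 (16.4% to 44.3%), 7 of 46 GFP CA1 (6.34% to 28.9%), 12 of 51 Ascl4 GC (12.8% to 37.5%) and 5 of 47 GFP GC cells (3.55% to 23.1%). Its own exons cover 5508 bases, more than those of any other gamma isoform, and a longer exon collects more reads. In the cells above 10 CPM it held 20.5 to 204.5 CPM in Ascl4 CA1, 23.4 to 241.5 in GFP CA1, 21.1 to 141.01 in Ascl4 GC and 49.9 to 115.7 CPM in GFP GC cells. Where it was present its ranges overlapped between the groups, and the intervals of its shares of cells overlapped too.

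Pcdhac2, the C-type isoform at the end of the alpha cluster, was called in 5 of 45 Ascl4 CA1, 5 of 46 GFP CA1, 1 of 51 Ascl4 GC and 4 of 47 GFP GC cells. The Ascl4 CA1 cells held 188.2, 148.95, 143.1, 121.7 and 11.9 CPM and the GFP CA1 cells 227.1, 85.5, 85.4, 83.6 and 34.03 CPM, overlapping ranges. The GFP GC cells held 518.9, 350.9, 292.5 and 76.2 CPM and were all in the second run, and the Ascl4 GC cell held 20.1 CPM and was in the first. Pcdhgc4, whose loss in mice is known to impair neuronal survival, was called in 6 of 45, 3 of 46, 3 of 51 and 2 of 47 cells in that order. Pcdhgc3, a C-type isoform linked to Wnt signalling through Axin1, was called in 5 of 45, 2 of 46, 3 of 51 and 0 of 47 cells. By the limit of 3 cells of the total, that 0 allows a share of up to 6.38%, and its exact interval reaches 7.55%. Pcdhac1 was called in 1 of 46 GFP CA1 and 1 of 51 Ascl4 GC cells, and in 0 of 45 Ascl4 CA1 and 0 of 47 GFP GC cells. A C-type isoform was accompanied by an alternate one in 49 of the 64 cells that had one.

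**Figure D4:**
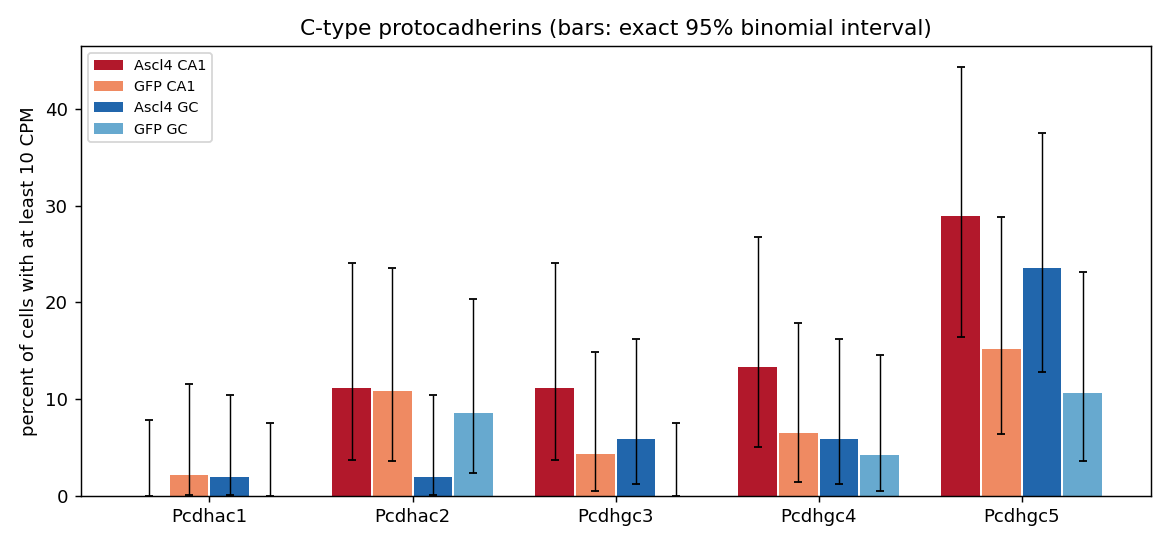
Percent of cells with at least 10 CPM of own reads of each C-type isoform in Ascl4 CA1, GFP CA1, Ascl4 GC and GFP GC cells, with exact 95% binomial intervals. Pcdhgc5 stands highest in every group, with 13 of 45, 7 of 46, 12 of 51 and 5 of 47 cells, and the intervals of the groups overlap for each isoform.

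Alternate isoforms were each found in a few cells, often at high levels. Among alpha isoforms Pcdha4 was called in 5 cells and Pcdha7 and Pcdha12 in 4 each. In the beta cluster Pcdhb20 led with 12 cells, of which 0 were Ascl4 CA1, 4 GFP CA1, 4 Ascl4 GC and 4 GFP GC. Pcdhb9 followed with 11 cells, of which 3 were Ascl4 CA1, 1 GFP CA1, 2 Ascl4 GC and 5 GFP GC, and Pcdhb21 or Pcdhb22 with 11, of which 5, 2, 4 and 0 were in these groups. In the gamma cluster Pcdhga11 was called in 13 cells, of which 0 were Ascl4 CA1, 7 GFP CA1, 5 Ascl4 GC and 1 GFP GC. The Ascl4 GC cells held 168.4, 83.9, 50.1, 33.1 and 27.7 CPM of it and the GFP GC cell 200.5 CPM, so levels overlapped where it was present. Pcdhga3 was called in 12 cells (5, 3, 3 and 1) and Pcdhgb7 in 10 (2, 1, 5 and 2). By the same limit of 3 cells, the 0 of 45 Ascl4 CA1 cells for Pcdhb20 and Pcdhga11 allows a share of up to 6.67%, and the exact interval reaches 7.87%. The pair found together most often was Pcdhga11 with Pcdhgc5, in 7 cells, 5 of them Ascl4 GC and 2 GFP CA1. A pooled level could rest on 1 cell. For example, 1 cell at 2018 CPM gave 85.3% of the summed per-cell CPM of Pcdhb19 in GFP GC cells.

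The first comparison set pyramidal cells with Ascl4 AAV against those without it. Of 38 protocadherin rows expressed (a read in at least 25% of the cells of 1 of the groups and a pooled 10 CPM in 1 of them), 36 were at least 1.5-fold higher in Ascl4 CA1 cells, where 24% of all genes tested were, and 2 were at least 1.5-fold lower, where 24.3% were. All 13 alpha and 21 gamma rows were among the 36, and each set repeats 1 number, the common reads. Those gave log2 ratios of 1.07 for alpha (0.24 and 1.56 in the first and second run) and 0.80 for gamma (1.86 and -0.065). The gamma difference was therefore confined to the first run, and alpha was above 1.5-fold in the second only. All protocadherin reads, with common reads and the overlap of Pcdhb21 and Pcdhb22 counted once, summed to 562 CPM in Ascl4 CA1 and 374 CPM in GFP CA1 cells (0.59; 1.19 and 0.37 in the runs). The beta reads counted in this way differed by 0.0049 (1.81 and -0.072 in the runs). By own reads, with Pcdhb21 and Pcdhb22 counted apart, 3 isoforms were higher and 5 lower of 10 expressed. The shares over all genes tested were 24% and 24.3%. An isoform carried by few cells can pass the expression limits only through the group where it is high, which favours a 1.5-fold difference. These counts were therefore not read as a difference between the groups.

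Isoforms were also held to 3 conditions, a 1.5-fold difference the same way in summed reads, in mean per-cell CPM and in both runs. Only 2 of the 10 isoforms expressed by own reads met them. The share of all genes tested that met them is not given, so the 2 are not read as an excess. The 3 conditions draw on the same cells and are not separate support. Pcdhgc5 was higher, at 48.9 CPM (48.0 to 49.9) in Ascl4 CA1 and 11.1 CPM (10.6 to 11.5) in GFP CA1 cells, a log2 ratio of 2.05 (2.10 and 1.86 in the runs). A single cell gave 49.6% of its pooled reads in Ascl4 CA1, and without that cell the level was 27.98 CPM and the ratio 1.27. The mean per-cell CPM differed by 1.21, and by 1.70 without the highest cell of each group. Pcdhga11 was lower, at 0.163 CPM in Ascl4 CA1 and 11.9 CPM in GFP CA1 cells (-3.48; -2.24 and -3.75). It passed the limit of 10 CPM only through GFP CA1 cells. The 7 GFP CA1 cells with Pcdhga11 held 24.4 to 338.2 CPM with a median of 58.9 CPM, while the highest Ascl4 CA1 cell held 9.58 CPM. Among isoforms that did not pass the expression limits, Pcdhgb4 (8.26 and 0.148 CPM) and Pcdhgb7 (7.62 and 2.64 CPM) were higher and Pcdhgb6 (0.892 and 2.54 CPM) lower in Ascl4 CA1 than in GFP CA1 cells in the same 3 ways. Without the cell giving most reads, Pcdhgb4 was at 0.567 and Pcdhgb7 at 1.45 CPM in Ascl4 CA1 cells, and Pcdhgb6 at 1.28 CPM in GFP CA1 cells.

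In granule cells, 3 of 41 expressed rows were at least 1.5-fold higher in Ascl4 GC than in GFP GC cells, where 25.6% of all genes tested were, and 3 were lower, where 30.7% were. Both shares lie below those of all genes, but the 41 rows hold all 13 alpha and 21 gamma rows, each set repeating the common reads. They are therefore not 41 separate members. The gamma common reads differed by a log2 ratio of 0.32 (0.45 and -0.22 in the runs) and the alpha common reads by 0.14 (0.46 and 0.67). The pooled alpha value lies below that of both runs, to which the groups contribute unequal numbers of cells. The mean per-cell CPM of the alpha common reads went the other way, at 30.8 CPM in Ascl4 GC and 59.5 CPM in GFP GC cells (-0.93). All protocadherin reads, counted as before, summed to 541 CPM in Ascl4 GC and 491 CPM in GFP GC cells (0.14). By own reads, with Pcdhb21 and Pcdhb22 counted apart, 7 isoforms were higher and 3 lower of 12 expressed. The shares over all genes tested were 25.6% and 30.7%. As in CA1 cells, an isoform can pass the expression limits only through the group where it is high. These counts were therefore not read as a difference between the groups.

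Of the isoforms expressed by own reads, Pcdhb21, Pcdhb22, Pcdhga3 and Pcdhgb6 were higher and Pcdhb19 lower in the same 3 ways. Those higher passed the limit of 10 CPM only through Ascl4 GC cells, which favours such a difference. The 3 ways draw on the same few cells and are not separate support. The share of all genes tested that met them is not given. Pcdhgb6 had 22.2 CPM in Ascl4 GC and 0.0326 CPM in GFP GC cells, but 3 Ascl4 GC cells at 879.9, 141.7 and 20.5 CPM carried it and 1 of them 83.4% of the summed per-cell CPM. Without that cell the pooled level was 2.38 CPM in Ascl4 GC cells. Pcdhga3 had 24.8 CPM in Ascl4 GC and 1.95 CPM in GFP GC cells (3.13; 0.76 and 5.31), from 3 and 1 cells above 10 CPM. A single second-run cell gave 77.4% of its pooled reads in Ascl4 GC, and without it the level was 6.04 CPM and the ratio 1.25. Pcdhb21 and Pcdhb22, counted together, had 11.2 CPM in Ascl4 GC and 0.233 CPM in GFP GC cells (3.30), with 4 of 51 and 0 of 47 cells at 10 CPM. A single cell gave 78.02% of their reads in Ascl4 GC, and without it the level was 2.52 CPM and the ratio 1.51. Pcdhb19 had 21.5 CPM in Ascl4 GC and 46.6 CPM in GFP GC cells (-1.08), with 2 cells above 10 CPM in each group, and without the cell giving most reads in each, 1.85 and 7.19 CPM (-1.52). Pcdhgc5 was above 1.5-fold in the sum (19.7 CPM in Ascl4 GC, 10.6 CPM in GFP GC cells, 0.84) but below it in the second run (1.52 and 0.52). Pcdha8, Pcdhga12 and Pcdhgc3, higher, and Pcdhb12, Pcdhb14 and Pcdhga8, lower, met the 3 conditions without passing the expression limits. Without the cell giving most reads in each group, their log2 ratios were 1.13, 1.34 and 1.11, and -2.14, -0.68 and -1.88. Across the 55 isoforms, the share of cells with a call was larger in Ascl4 GC than in GFP GC cells for 23, smaller for 19 and equal for 13. In CA1 it was larger in Ascl4 CA1 than in GFP CA1 cells for 28, smaller for 17 and equal for 10. The same count over all genes was not made. A direction could rest on 1 cell, since 9 of the 31 isoforms seen in Ascl4 GC and 13 of 27 in GFP GC were called in 1 cell. The same held for 17 of 35 in Ascl4 CA1 and 16 of 36 in GFP CA1.

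Between the 2 neuron types without Ascl4 AAV, 2 of 39 expressed rows were at least 1.5-fold higher in GFP CA1 than in GFP GC cells, where 30.5% of all genes tested were, and 21 were lower, where 27.1% were. Of the 21, 18 were gamma rows repeating the common reads, which had a log2 ratio of -0.70 (-1.51 and -0.32 in the runs). Alpha common reads differed little in the sum (-0.055) but by 4.93 in the first and -0.74 in the second run. Own gamma reads went the other way from the common ones, at 109.8 CPM in GFP CA1 and 82.5 CPM in GFP GC cells (0.41; 0.57 and 0.37). A gamma isoform was called in 26 of 46 GFP CA1 and 15 of 47 GFP GC cells. Of the isoforms expressed by own reads, 6 of 11 were higher and 4 lower, where 30.5% and 27.1% of all genes tested were. Here too an isoform can pass the expression limits only through the group where it is high. Only Pcdhb9 and Pcdhb19, both lower in GFP CA1, held in the 3 ways. Both passed the limit of 10 CPM only through GFP GC cells. The share of all genes tested that held in the 3 ways is not given. Pcdhb9 had 4.22 CPM in GFP CA1 and 32.2 CPM in GFP GC cells (-2.67), from 1 and 5 cells above 10 CPM. Pcdhb19 had 2.86 CPM in GFP CA1 and 46.6 CPM in GFP GC cells (-3.62). Without the cell giving most reads in each group, Pcdhb9 was at 0.248 and 19.3 CPM (-4.02) and Pcdhb19 at 0.676 and 7.19 CPM (-2.29). Among isoforms outside the limits, Pcdha4 and Pcdhgb6 were higher and Pcdhb12 lower in GFP CA1 cells, with ratios of 1.06, 1.17 and -2.10 without those cells. This comparison and the one of Ascl4 GC with GFP GC cells share the GFP GC cells, and that of Ascl4 CA1 with GFP CA1 cells shares the GFP CA1 cells.

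**Figure D5:**
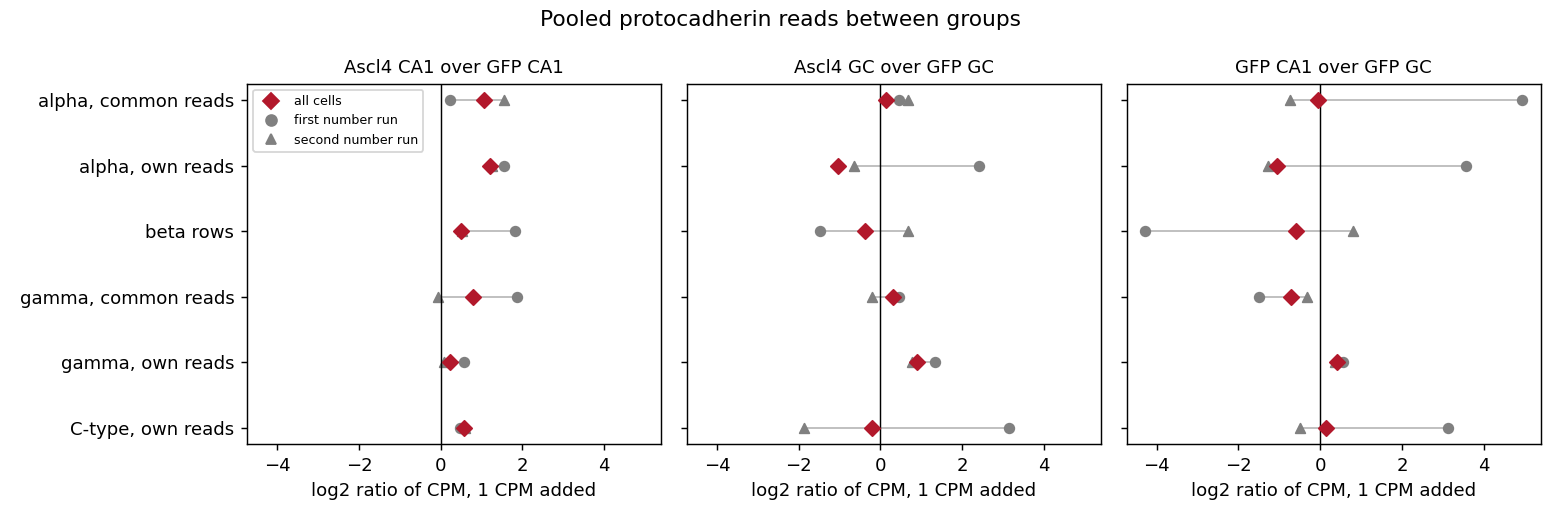
Log2 ratio of pooled CPM (1 CPM added) for common and own protocadherin reads, and for beta rows as deposited, in 3 comparisons, as a red diamond for all cells and grey symbols for the 2 number runs. Gamma common reads of Ascl4 CA1 over GFP CA1 cells stand at 1.86 in the first and -0.065 in the second run, and own gamma reads are above 0 in every run of each comparison.

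Genes known to set protocadherin choice were read from a list of 25 regulators, which holds the boundary protein gene Ctcf, cohesin genes and genes of DNA and histone methylation. Of 21 expressed, 2 were higher and 4 lower in Ascl4 CA1 than in GFP CA1 cells, where 24% of all genes tested were higher and 24.3% lower (median log2 ratio 0.09, against -0.02 over all genes tested). In Ascl4 GC against GFP GC cells 7 were higher and 6 lower, where 25.6% and 30.7% of all genes were (0.03, against -0.08). In GFP CA1 against GFP GC cells 6 were higher and 4 lower, where 30.5% and 27.1% of all genes were (0.36, against 0.02). Ctcf had 50.3 CPM in Ascl4 CA1 and 48.9 CPM in GFP CA1 cells, and 45.1 CPM in Ascl4 GC and 69.99 CPM in GFP GC cells (-0.62). Rad21, the kleisin subunit of cohesin, had 2.08 CPM in Ascl4 CA1 and 32.5 CPM in GFP CA1 cells (-3.44), but 51.3 CPM in Ascl4 GC and 15.8 CPM in GFP GC cells (1.64). Wapl, which releases cohesin from DNA, was also lower in Ascl4 CA1 (21.8 CPM) than in GFP CA1 cells (85.6 CPM, -1.93) and higher in Ascl4 GC (32.4 CPM) than in GFP GC cells (16.2 CPM, 0.96). Both held in each run. Nipbl, the cohesin loader, was higher in Ascl4 GC than in GFP GC cells (87.1 and 40.1 CPM, 1.10), as was the histone methyltransferase gene Setdb1 (217.3 and 34.7 CPM, 2.61), whose difference in mean CPM was 0.11 without the highest cells. Pds5b, a cohesin regulator, was higher in Ascl4 CA1 than in GFP CA1 cells (50.6 and 21.9 CPM, 1.18). In GFP CA1 against GFP GC cells, Wapl (2.33) and Tet2 (1.29), which encodes an enzyme oxidising methylated DNA, were higher, and Pds5a (-0.80) and Pds5b (-1.23) lower. The difference of Pds5a in mean CPM was -0.26 without the highest cells, and it reached 10 CPM in 15 of 46 GFP CA1 but 7 of 47 GFP GC cells.

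A further list held 25 partners that signal from or cut protocadherins. Of 23 expressed, 3 were higher and 5 lower in Ascl4 CA1 than in GFP CA1 cells, against 24% and 24.3% of all genes (median -0.21, against -0.02). In Ascl4 GC against GFP GC cells 4 of 22 were higher and 4 lower, against 25.6% and 30.7% (-0.06, against -0.08). In GFP CA1 against GFP GC cells 9 of 23 were higher and 1 lower, against 30.5% and 27.1% (0.23, against 0.02). Cyfip2 and Nckap1 encode subunits of the WAVE complex, which drives actin branching and binds protocadherin tails. Cyfip2 had 159.1 CPM in Ascl4 CA1 and 377 CPM in GFP CA1 cells (-1.24). Nckap1 had 238.1 CPM in Ascl4 GC and 562 CPM in GFP GC cells (-1.24). Adam10, which sheds protocadherin ectodomains, was higher in Ascl4 GC (70.5 CPM) than in GFP GC cells (30.8 CPM, 1.17), and Ctnnb1, the beta-catenin gene, likewise (513 and 269.0 CPM, 0.93). Psen2, a subunit of gamma-secretase, was higher in GFP CA1 than in GFP GC cells (2.90), and Marcks, a membrane-bound regulator of actin, lower (-1.42).

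Markers of other cell types differed between the groups. The summed level of 10 microglia markers ran from 0.720 to 52515 CPM per cell in Ascl4 CA1 (pooled 3876), 1.84 to 21788 in GFP CA1 (1785), 0.127 to 12466 in Ascl4 GC (1418) and 0 to 13315 CPM in GFP GC cells (602). The 12 oligodendrocyte markers pooled at 867 CPM in both Ascl4 CA1 and GFP CA1 cells, where cells ran up to 35572 and 20548 CPM. They pooled at 7581 CPM in Ascl4 GC and 621 CPM in GFP GC cells, where cells ran up to 115471 and 5318 CPM. The 8 astrocyte markers pooled at 252.1, 576, 582 and 694 CPM in Ascl4 CA1, GFP CA1, Ascl4 GC and GFP GC cells. Their cell medians were 71.2, 403.6, 12.1 and 276.9 CPM in the same order. Of these markers only Olig2, in Ascl4 CA1 cells, had no read in a group. Only 4 Ascl4 CA1, 3 GFP CA1, 14 Ascl4 GC and 9 GFP GC cells had less than 100 CPM on each of these 3 lists. In those, the mean number of isoforms was 2.0, 1.0, 0.786 and 0.333, gamma common reads reached 10 CPM in 1, 1, 7 and 2 cells, and Pcdhgc5 was called in 1, 1, 1 and 0 cells. Alpha common reads reached 10 CPM in 4, 0, 1 and 2 of these cells, and Pcdhga11 was called in 0 cells of each group. Of the microglia markers expressed, 7 of 10 were at least 1.5-fold higher in Ascl4 CA1 than in GFP CA1, 6 of 9 in Ascl4 GC than in GFP GC, and 9 of 9 in GFP CA1 than in GFP GC cells, where 24%, 25.6% and 30.5% of all genes tested were. With so few cells low in these markers, their part in the protocadherin results was not tested.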

How the data were processed

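Single-cell libraries of 4 groups were compared. The deposited gene tables hold read counts of 228 cells and of the 189 kept by the authors, and a deposited table of normalized signal served as an alternative. Per the submitters' processing notes, the tools were STAR and HTSeq on GRCm38.p4. The treatment of shared exons, the strand setting and the normalization method were not given. The design text puts 51 Ascl4 CA1, 48 GFP CA1, 52 Ascl4 GC and 53 GFP GC cells past quality control; 45, 46, 51 and 47 are in the table and were analysed. Spike-in rows (92 rows, 4 reads) were left out of totals.

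Common reads of a cell were the lowest alpha or gamma row. An isoform's own reads were its row minus these (2 times these for Pcdha11). Taking the rows apart was run on simulated rows built as common plus own reads, so recovery of the parts was built in. Exons shared by only some genes of a cluster were not simulated. The ratios were checked on Poisson counts with the same mean in all cells of a group, without single cells holding most reads. Ratios used pooled CPM with a pseudocount of 1 CPM. Named members were the C-type isoforms, the 3 most frequent alternate isoforms per cluster, and up to 5 per direction meeting the 3 conditions given. List genes met the same conditions, except Ctcf, named after its values were seen. Members and lists were chosen with earlier results of these data known. Exon positions came from GENCODE. Alternatives included thinning, other minimums, and scaling by TMM (edgeR 4.0.16) or median of ratios (DESeq2 1.42.0), both under R 4.3.3. Scripts ran in Python 3.11.15 with scipy 1.17.1, pandas 2.3.3, numpy 2.4.6 and matplotlib 3.10.9.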

Additional observations from a re-analysis of the deposited data

Results flagged for a closer look

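The difference between cells with and without Ascl4 AAV had opposite signs in granule and CA1 cells, in both number runs, for 3 of the genes named. These genes were picked from the same ratios. Whether the ratio differs between the cell types was not tested, since each group is 1 sample. The share of all genes tested with opposite signs in this way was not computed. For Pcdhgb6 the log2 ratio was 4.49 in Ascl4 GC over GFP GC and -0.91 in Ascl4 CA1 over GFP CA1 cells, from 3 Ascl4 GC, 0 GFP GC, 1 Ascl4 CA1 and 3 GFP CA1 cells at 10 CPM or more. A single cell gave 89.5% of its pooled reads in Ascl4 GC. Its levels in Ascl4 CA1 (0.892 CPM) and GFP CA1 cells (2.54 CPM) did not pass the expression limits. For Rad21 the ratios were 1.64 and -3.44, with 14 Ascl4 GC against 4 GFP GC cells and 3 Ascl4 CA1 against 9 GFP CA1 cells at 10 CPM. For Wapl they were 0.96 and -1.93, with 18 against 15 and 17 against 23 cells.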

How the results depend on the processing

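Of 359 values under alternatives, 291 lay within the spread around the value as first computed and 66 outside it. The spread was the SD over cells or, for log2 ratios, over the 2 number runs, and 1.5 times for counts. It was wide where the runs differed, and the runs were themselves among the alternatives. A value within the spread therefore does not show that a result is stable. The other 2 were ratios past 1.5-fold that changed sign in the second number run, where gamma common reads in Ascl4 CA1 over GFP CA1 had a log2 ratio of -0.065 (0.80 in all cells) and beta reads in GFP CA1 over GFP GC 0.80 (-0.60 in all cells). The cause was not tested. Ratios within 1.5-fold changed sign under more settings, as given next. Taking own reads and counting common reads once, the results on common and beta reads, counting Pcdhb21 and Pcdhb22 once, leaving out the cell with most reads of an isoform and the subset of cells low in glial markers were chosen after seeing the data. The other alternatives had been listed earlier.

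Alpha common reads in Ascl4 GC over GFP GC, at 0.14, had no stable direction. They were 0.46 in the first and 0.67 in the second run, but -0.93 by mean CPM, -0.49 without the highest cells, -0.91 in thinned cells, -0.79 without the deepest 10% of cells and -1.17 by the authors' normalized values. In the first run, alpha common reads in GFP CA1 over GFP GC were 4.93 (-0.055 in all cells) and beta reads -4.28. Beta reads in Ascl4 CA1 over GFP CA1 were 1.81 in the first run and 2.13 by the authors' values. Gamma common reads in Ascl4 GC over GFP GC were -0.22 in the second run. Beta rows in Ascl4 GC over GFP GC were at -0.37 in all cells and 0.68 in the second run. With Pcdhb21 and Pcdhb22 counted once, beta reads in Ascl4 CA1 over GFP CA1 were 0.0049, against 0.49 for the rows as deposited.

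Counts of rows depended on the reads used. Rows higher in Ascl4 CA1 than GFP CA1 (36) numbered 21 in the first run, 16 in the second and 3 by own reads. Rows lower (2) numbered 5 by own reads or with no filter, 0 in the first run or in thinned cells, and 1 with all cells, without the highest or without the deepest cells. Rows higher in Ascl4 GC than GFP GC (3) numbered 7 by own reads, 14 in the second run, and 0 in thinned cells or without the highest cells. Rows lower (3) numbered 15 by the authors' values or mean CPM, 14 in thinned cells or without the deepest cells, and 9 with no filter. Rows higher in GFP CA1 than GFP GC (2) numbered 13 in the first run, 8 with no filter, 6 by own reads, 0 in thinned cells, and 1 with all cells, by the authors' values, or without the highest or deepest cells. Rows lower (21) numbered 36 by the authors' values and 4 by own reads.

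For rows as deposited, a minimum of 1 read gave median isoforms per cell of 35 in Ascl4 CA1, 36 in GFP CA1, 34 in Ascl4 GC and 36 in GFP GC cells. A minimum of 50 CPM gave 13 in GFP CA1 and 14 in GFP GC cells, all cells without quality control gave 14 in GFP CA1, and own reads gave 2, 1, 1 and 1. Their mean Jaccard index (isoforms in both cells over isoforms in either) at 1 read was 0.679 in Ascl4 CA1, 0.642 in GFP CA1 and 0.706 in GFP GC cells, and by own reads 0.0595, 0.0410, 0.0572 and 0.0383 in the 4 groups. Mean own-read isoforms per cell were 8.02, 8.17, 8.78 and 7.74 at 1 read. In thinned cells at 1 read they were 3.71 in Ascl4 CA1, 3.17 in GFP CA1, 3.41 in Ascl4 GC and 3.21 in GFP GC cells. Without thinning, a minimum of 1 CPM gave 3.20, 2.85, 3.14 and 2.66 in the same order.

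The authors' normalized values put the median of all genes at -0.23 in GFP CA1 over GFP GC, against 0.02 by CPM. No paired analysis was possible because each title number belongs to 1 cell and the groups share none. In the shallowest cells 1 read is worth nearly 1 CPM, so isoforms at 1 read are at the limit of detection there.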

Other observations

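Among the 39 cells that the authors' quality control left out (13 Ascl4 CA1, 8 GFP CA1, 5 Ascl4 GC and 13 GFP GC), gamma common reads reached 10 CPM in 3, 2, 1 and 8 cells and alpha common reads in 3, 2, 0 and 3 cells, in the same order. Their mean number of isoforms by own reads was 0.615, 0.625, 0.20 and 0.692.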
